A study of Mus musculus with 15 samples.

Results

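Gene expression after 2 h of interleukin-3 (IL-3) was set against expression after 30 min in Ba/F3-beta cells, a mouse blood cell line that grows on IL-3, all given the control siRNA (scramble I). The 6 arrays of this comparison were chosen by sample title from the 15 arrays of the study, 1 array per time on each of 3 Affymetrix designs, murine U74A, U74B and U74C. The study also held Ba/F3-beta cells given siRNAs against Stat5A and Stat5B with IL-3 for 2 h or 30 min (6 arrays) and control siRNA cells left unstimulated (3 arrays), and its stated aim was to find IL-3-induced genes that need these transcription factors. Per the design text, labelled RNA of each sample went onto the 3 designs, so the designs read different genes and are not separate cultures. All cells carried an siRNA, the unstimulated cells included. How long the cells had been without IL-3 is not given in the sources used here. With 1 array per time and design, no difference has a replicate check, no p-value was computed, and changes were selected by size alone.

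IL-3 binds a receptor without enzyme activity of its own, and the attached kinase JAK2 activates the transcription factors STAT5A and STAT5B, the RAS-ERK cascade and the PI3K-AKT pathway. Growth factors first switch on immediate early genes, whose transcripts need no new protein synthesis and are short-lived, many of them encoding transcription factors or proteins that destroy mRNA. A second wave follows and includes genes for cell growth, while AKT keeps FOXO factors, which drive growth arrest genes, out of the nucleus.

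After 2 h, 156 genes were 2-fold or more higher and 136 were 2-fold or more lower than after 30 min, out of 8234 genes measured in this ratio. These are 1.89% and 1.65% of the measured genes, or 3.55% in both directions together. A gene counted as measured when at least 1 of its 2 signals reached a floor of 119.9 signal units, and a dimmer signal was raised to the floor, so some changes are lower bounds, written "at least". The largest changes were falls. At 4-fold or more, 15 genes were lower and 3 were higher, and at 3-fold the counts were 32 lower and 20 higher. The log2 ratio over all measured genes had a median of -0.02, with 5% of genes below -0.71 and 5% above 0.68.

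The spread of a single log2 ratio, read from 1277 pairs of probe sets of 1 gene, was an SD of 0.30, and 2.82% of such pairs differed by 2-fold or more. By design the SD was 0.23 for U74A, 0.30 for U74B and 0.37 for U74C, so ratios from U74C are the least precise. These values cover differences between probes of the same arrays and leave out differences between cultures. The pairs held only probe sets free of cross-hybridisation with both signals at or above the floor. Among the called genes, 40 higher and 35 lower ones had a signal under the floor. Another limit is that 14 higher and 20 lower genes were read only by probe sets that can cross-hybridise. Among the 156 higher genes, 29 were read by more than 1 probe set. In 29 of these all probe sets lay above 0, but in only 14 were all past 2-fold. Of the 136 lower genes, 18 had more than 1 probe set. In 17 all lay below 0, but in only 8 were all past 2-fold. The calls were made on the median of these same probe sets, which favours a shared sign, so these counts are no separate support. The 3' to 5' signal ratio of the Gapdh control lay between 0.784 and 0.805 on the 2 h arrays and between 0.777 and 0.858 on the 30 min arrays, and that of the transferrin receptor control between 3.28 and 3.98 at 2 h and between 3.56 and 5.12 at 30 min. In total RNA from a culture, fewer cells of a type and less RNA per cell cannot be told apart.

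Markers of blood cell lineages were checked against the name of the line, which is usually described as pro-B. Of 16 pro-B and B lineage markers, 3 were measured (Tcf3, Ikzf1 and Cd79b). The B lineage receptor gene Cd79a reached a highest signal of 50.7 at 2 h and 21.7 at 30 min, the B cell factor Pax5 30.6 at 2 h and 58.6 at 30 min, and Ebf1 30.2 at 2 h and 55.4 at 30 min, all under the floor. Of 12 erythroid and megakaryocyte markers 8 were measured, among them Gata1, Tal1, Klf1 and the platelet integrin gene Itga2b. None of 13 T and NK cell markers was measured, and of 16 myeloid and mast cell markers the 1 measured was Ms4a2, a subunit of the IgE receptor, at 309.6 signal units after 2 h and 301 after 30 min. The arrays therefore did not show Cd79a, Pax5 or Ebf1 above the floor, whereas Cd79b of the same list reached it at 30 min. These markers do not settle the lineage, and the cells are called here by the name of the line. The summed signal of the erythroid and megakaryocyte markers was 5068 at 2 h and 6266 at 30 min. Of the 8 measured members 1 (12.5%), Klf1, was 2-fold or more lower, against 1.65% of all measured genes. The part of these markers in the other differences was not tested.

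Immediate early genes were among the steepest falls. Fos, a subunit of the AP-1 transcription factor, had a signal of 9.30 without IL-3, 1944 after 30 min and 44.3 after 2 h, so that it was at least 16.2-fold lower at 2 h than at 30 min. Egr2, a zinc finger factor, had 25.9 without IL-3, 2238 after 30 min and 309 after 2 h, 7.25-fold lower at the later time. Both were under the floor in unstimulated cells and high at 30 min, and at 2 h Fos was again under the floor while Egr2 was above it. Cd69, a lymphocyte activation antigen, had 47.6, 781 and 114 at the same 3 times and was at least 6.52-fold lower at 2 h than at 30 min. Csrnp1, a nuclear protein first described as induced by axin, had 164, 2095 and 357 and was 5.87-fold lower. Dusp1, a phosphatase that inactivates MAP kinases, had 149, 1824 and 448 and was 4.07-fold lower. In these 3 genes the 2 h signal also lay between the unstimulated and the 30 min signal, and above the floor except in Cd69.

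Ier2, an early gene of the nucleus, had 313 without IL-3, 3487 after 30 min and 874 after 2 h. Btg2, an antiproliferative gene whose product recruits mRNA deadenylases, had 401, 1188 and 316. Ier3 had 408, 1761 and 682. Ier2 and Ier3 thus stayed above their unstimulated signal at 2 h, whereas Btg2 was below it. Zfp36, which encodes tristetraprolin, a protein that binds AU-rich mRNAs and promotes their decay, had 38.0, 406 and 16.7 and was at least 3.39-fold lower at 2 h. Junb, another AP-1 subunit, was read only by 2 probe sets that can cross-hybridise, which gave 260.5 and 276 after 2 h, against 813 and 1034 after 30 min. Both probe sets of Junb were lower at 2 h, by 1.64 and 1.90 on the log2 scale.

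**Figure D1:**
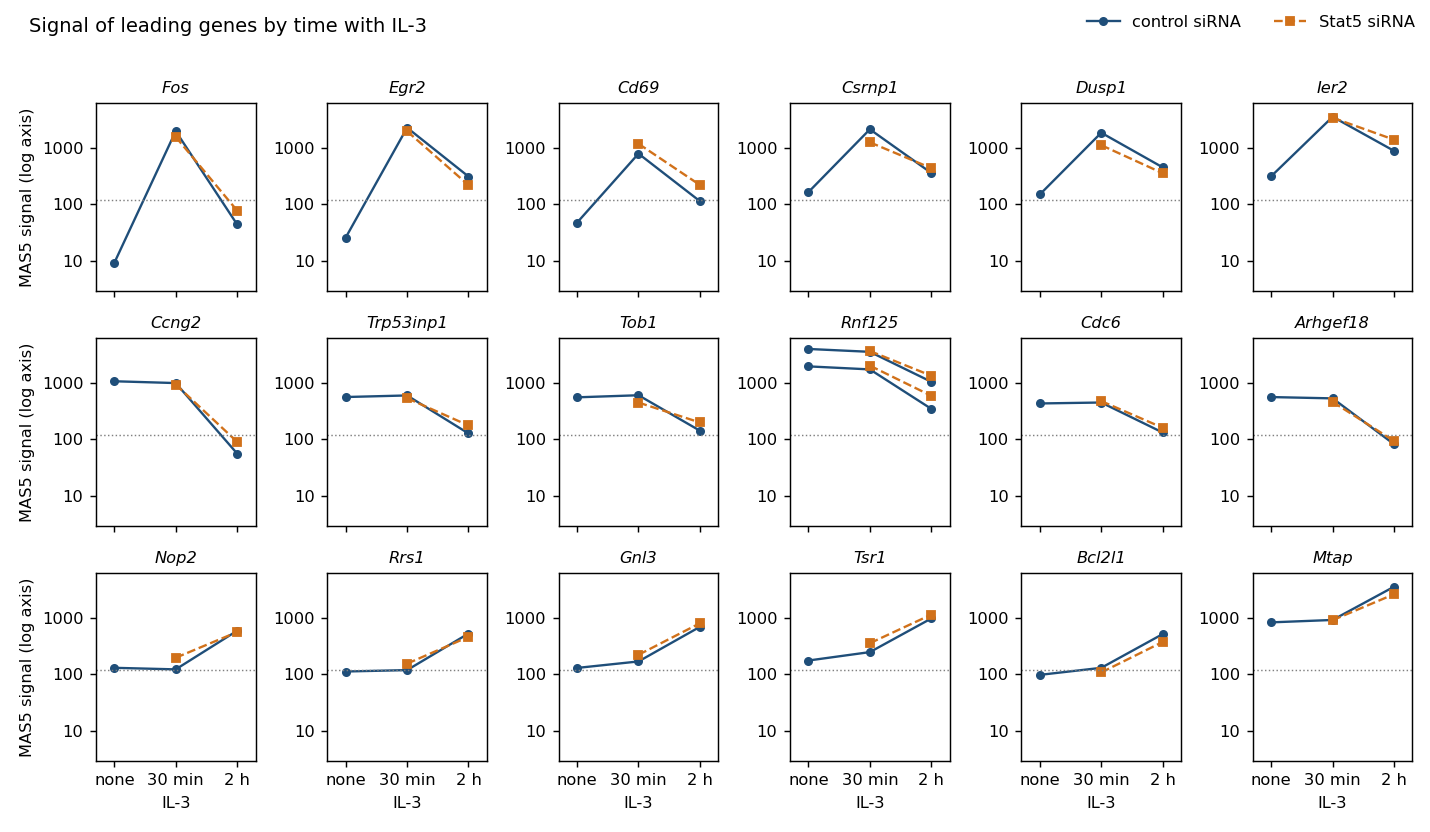
MAS5 signal (log axis, arbitrary units) of 18 genes without IL-3, after 30 min and after 2 h in control siRNA cells (circles, solid lines), and at the 2 IL-3 times in Stat5 siRNA cells (squares, dashed lines). Each point is 1 array, Rnf125 has 2 probe sets, and the dotted line is the floor of 119.9. The top row is highest at 30 min, with Fos at 1944, and there Egr2, Csrnp1, Dusp1 and Ier2 stayed above their unstimulated signal at 2 h. The middle row is low only at 2 h, with Ccng2 at 56.3, and the bottom row is highest at 2 h, with Nop2 at 586.5.

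The promoters of 4 of these genes are shown because their windows hold letters of motifs known from early genes, and they come from RefSeq on GRCm38.p6, each 300 bases from 250 before to 50 after the annotated start, 5′ to 3′ on the gene's strand. Capitals in Egr2 (chr10:67537316-67537615, plus strand) and Zfp36 (chr7:28379179-28379478, minus strand) mark the CArG box, the motif of serum response factor. In Dusp1 (chr17:26508423-26508722, minus strand) and Btg2 (chr1:134079106-134079405, minus strand) they mark TGACGTCA, the cyclic AMP response element.
Egr2: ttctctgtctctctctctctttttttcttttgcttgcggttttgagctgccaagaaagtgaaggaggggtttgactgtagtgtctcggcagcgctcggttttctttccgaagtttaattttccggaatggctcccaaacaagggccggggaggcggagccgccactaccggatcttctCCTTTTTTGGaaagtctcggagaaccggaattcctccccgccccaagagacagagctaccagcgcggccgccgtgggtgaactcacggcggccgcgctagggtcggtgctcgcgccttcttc
Zfp36: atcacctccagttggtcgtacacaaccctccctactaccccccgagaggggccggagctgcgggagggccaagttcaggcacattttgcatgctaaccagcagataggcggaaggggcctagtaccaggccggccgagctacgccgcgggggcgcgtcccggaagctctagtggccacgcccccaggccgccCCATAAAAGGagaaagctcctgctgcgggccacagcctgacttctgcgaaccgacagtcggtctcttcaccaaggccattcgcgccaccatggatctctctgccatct
Dusp1: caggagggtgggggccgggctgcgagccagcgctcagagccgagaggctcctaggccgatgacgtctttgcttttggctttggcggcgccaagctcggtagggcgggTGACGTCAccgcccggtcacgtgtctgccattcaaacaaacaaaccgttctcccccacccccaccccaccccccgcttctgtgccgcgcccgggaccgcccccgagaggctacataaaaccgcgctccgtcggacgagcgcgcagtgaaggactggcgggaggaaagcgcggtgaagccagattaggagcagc
Btg2: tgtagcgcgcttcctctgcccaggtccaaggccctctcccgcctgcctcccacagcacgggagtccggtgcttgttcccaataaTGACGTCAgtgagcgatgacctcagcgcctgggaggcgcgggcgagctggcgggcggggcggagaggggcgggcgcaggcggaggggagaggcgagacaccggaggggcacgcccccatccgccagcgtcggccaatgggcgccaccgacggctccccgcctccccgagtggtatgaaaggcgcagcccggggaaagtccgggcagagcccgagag

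Of the 14 genes up at 30 min on other arrays and lower at 2 h (defined in the next paragraph), 12 had promoters in the table, 19 windows in all. The CArG box stood in 5 of the 19 windows, 26.3%, which belong to Egr2 (4 of its 5 windows, some overlapping) and Zfp36. Among the promoters of all measured genes 1.20% held it, and among all RefSeq windows supplied 1.63% did. TGACGTCA stood in 10.5% of the 19 windows (Dusp1 and Btg2), against 3.07% for all measured genes and 1.79% for all promoters. Motifs were searched on both strands, and a match is a description of the letters in the window. Fos, Ier3, Oasl1, Ppil6 and 4930405O22Rik held none of the motifs searched, which says nothing about any factor.

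Genes that were up at 30 min were also chosen on arrays outside the control ratio, and the ratio was read in them. Between the Stat5 siRNA array at 30 min and the unstimulated control array, 64 of 8178 genes (0.783%) were 2-fold or more higher, and 59 of them were measured in the control siRNA ratio. That choice changes the siRNA and IL-3 together, so the effects of the 2 cannot be told apart in it, and not all of its genes are shown to be early IL-3 genes. In control siRNA cells 29 of the 59 were 2-fold or more up at 30 min over unstimulated cells, 27 were within 2-fold and 3 were not measured. Of the 14 described next 13 were up and 1, Oasl1, was within 2-fold. The control 30 min arrays also enter the ratio that picked the 14, and the unstimulated arrays the choice of the 59. The choice itself thus favours these counts, which are no separate support. Of these 59, 14 (23.7%) were 2-fold or more lower at 2 h, against 1.65% of all measured genes, and 3 (5.08%) were 2-fold or more higher, against 1.89%. The 3 were Id1, Tsr1 and Zfpm2. The median over the 59 was -0.16 on the log2 scale, or 0.025 with dim signals left under the floor, and 34 were below 0. Beside the 10 named above and Ppil6, at least 5.71-fold lower on a probe set that can cross-hybridise, the 14 comprised Oasl1, an interferon response gene with 124 at 2 h and 255 at 30 min, and Scgn and 4930405O22Rik, which lie outside the naming rule and are named after their values were seen.

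**Figure D2:**
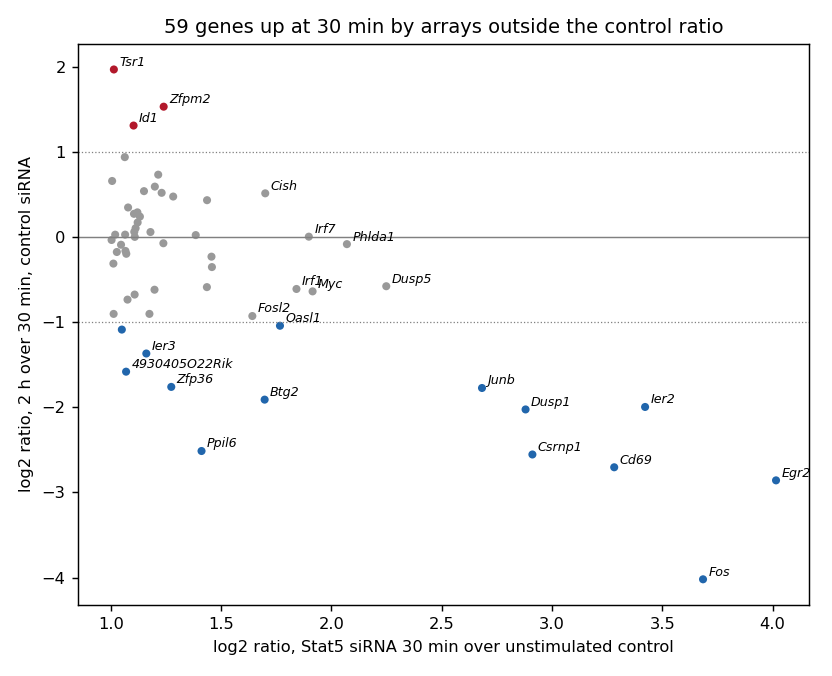
Each point is 1 of 59 genes that were 2-fold or more higher in Stat5 siRNA cells at 30 min than in unstimulated control cells (horizontal axis, log2 ratio), set against the log2 ratio of 2 h over 30 min in control siRNA cells (vertical axis), which uses other arrays. Blue marks the 14 genes at -1 or lower, red the 3 genes at 1 or higher, and dotted lines mark 2-fold.

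Other early genes stayed high at 2 h. Dusp5, a nuclear phosphatase for ERK, had 380.1 without IL-3, 2379 after 30 min and 1593 after 2 h. Phlda1, a pleckstrin homology domain gene, had 43.0, 839.8 and 792. Myc, a transcription factor of growth genes, had 39.4, 527 and 339. Compared with Fos, these genes kept most of their 30 min signal, with log2 ratios of -0.58, -0.08 and -0.64. Cish, a STAT5-induced inhibitor of cytokine receptors, went further in the other direction, with 108, 1097 and 1565. Fosl2, an AP-1 subunit with 2 probe sets, had 525 and 933 at 2 h, against 1039 and 1708 at 30 min, a log2 ratio of -0.93. Jun had 18.6, 224 and 3.53 at the 3 times, and because its 30 min signal was less than 2-fold above the floor, its ratio is only bounded, at 0.90 or more below 0 on the log2 scale.

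Taken by list, 8 of 18 measured genes of the IER and early gene list (44.4%) were 2-fold or more lower, against 1.65% of all measured genes, and 0 were higher, with a median log2 ratio of -0.57 against -0.02 for all genes. Besides the 6 already described, the 8 were Tob1, an antiproliferative relative of Btg2, and Zfp36l1, a relative of Zfp36. Of 9 AP-1 subunits, 2 were lower (Fos and Junb), 0 were higher and the median was -0.40. Among 9 EGR, NR4A and SRF-linked genes Egr2 was lower while Egr3 was nearly level, with 221 at 2 h and 206 at 30 min. Nab2, a corepressor of EGR factors, was at least 2-fold higher, with 249 at 2 h and 68.2 at 30 min. The EGR list as a whole had a median of 0.29, so its members did not move one way.

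The DUSP and Sprouty list split by member. Of the 12 measured members 3 (25%) were higher, against 1.89% of all measured genes. Dusp1 was lower (8.33% of the list, against 1.65%), and the list median was 0.46. Dusp6, the cytoplasmic phosphatase of ERK, had 397 and 480 on its 2 probe sets after 2 h, against 157 and 146 after 30 min, a 2.88-fold difference. Spred1, an inhibitor of RAS-ERK signalling, had 4 probe sets with log2 ratios between 0.13 and 2.01, the lowest of them a bound from a dim probe set. Dusp14 had 813.5 after 2 h and 379 after 30 min. At 30 min Spred1 and Dusp14 were within 2-fold of their unstimulated signal, unlike Dusp1 and Dusp5.

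Most of the 136 lower genes were not up at 30 min on those other arrays, which differ from the unstimulated arrays in siRNA as well as in IL-3. There 118 of them were within 2-fold of the unstimulated level, 14 were 2-fold or more up, 2 were down and 2 were not measured. The median log2 ratio at 2 h was -1.95 for the 14 and -1.20 for the 118. Ccng2, a cyclin that inhibits the cell cycle and a known FOXO target, had 1055 without IL-3, 981 after 30 min and 56.3 after 2 h. It was at least 8.18-fold lower at 2 h than at 30 min, second only to Fos when genes on probe sets free of cross-hybridisation are ranked by ratio or bound.

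Trp53inp1, a stress gene induced by p53, had 557, 593 and 127 at the 3 times and was 4.67-fold lower at 2 h. Tob1 had 549.9, 598 and 142 and was 4.21-fold lower. Rnf125, a ubiquitin ligase, was read on 2 designs and had 1034 on U74B and 345 on U74C after 2 h, against 3484 and 1707 after 30 min. All 3 genes thus had near-equal signals in unstimulated cells and at 30 min and were low only at 2 h. Jade2, a subunit of a histone acetyltransferase complex, had 355, 630.5 and 123. Nr2c2, an orphan nuclear receptor, had 686, 566 and 167. Of this pair, Jade2 had a higher signal at 30 min than without IL-3.

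Arrdc3, an arrestin-like gene that negatively regulates cell surface receptors, had 598, 466 and 151 without IL-3, at 30 min and at 2 h. Klf6, a zinc finger factor, had 245 and 255 on its 2 probe sets after 2 h, against 545 and 751 after 30 min. Itga4, an integrin of blood cells, was read by 3 probe sets that gave 128, 509 and 56.6 after 2 h, against 306.5, 1401 and 273 after 30 min. All 3 probe sets of Itga4 were past 2-fold. Klf1, the erythroid factor, had 194 after 2 h and 450.4 after 30 min.

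Of 24 measured genes of the FOXO-linked and growth arrest list 4 (16.7%) were 2-fold or more lower, against 1.65% of all measured genes, and 0 were higher. In all 19 of the 24 were below 0, against 4314 of the 8234 measured genes, and the list median was -0.53. Beside Ccng2 and Trp53inp1 the 4 were Cdkn2d and Pik3ip1. Cdkn2d, an inhibitor of the D cyclin kinases, had 159.8 after 2 h and 358 after 30 min. Pik3ip1, an inhibitor of PI3K read only by a probe set that can cross-hybridise, had 76.4 after 2 h and 519 after 30 min. Cdkn2c, a second inhibitor of those kinases, had 343 after 2 h and 656 after 30 min, a log2 ratio of -0.93. Foxo3, one of the factors themselves, lay at -0.68 and Txnip, an inhibitor of thioredoxin, at -0.60, both short of 2-fold. Lists can share members, and Cdkn2c and Cdkn2d also stand among the 10 measured D cyclin, CDK4/6 and pocket protein genes, which had a median of -0.27.

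**Figure D3:**
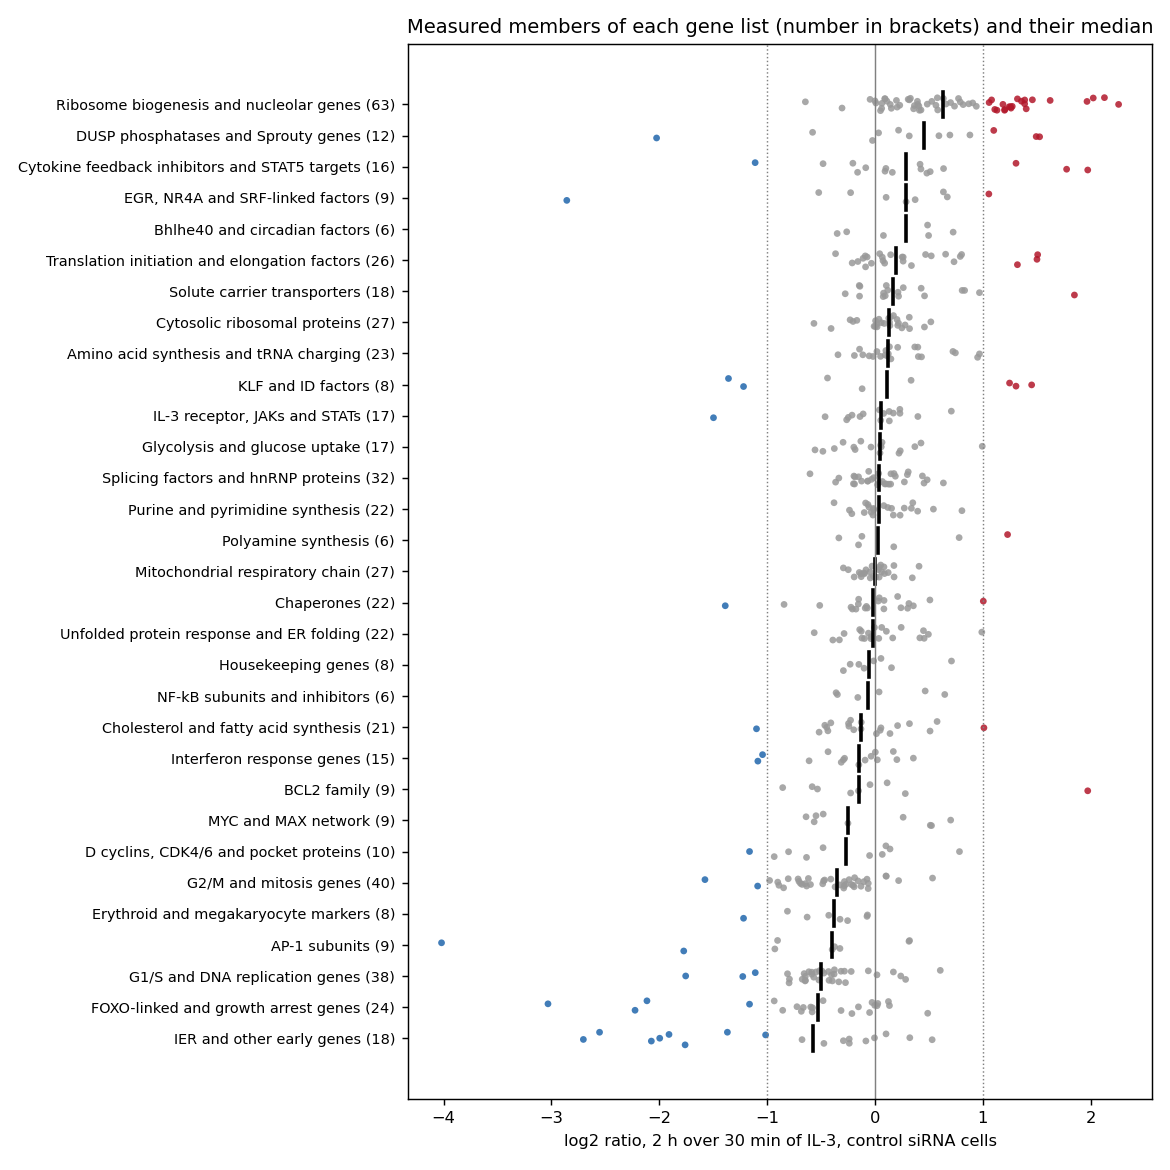
Log2 ratio of 2 h over 30 min in control siRNA cells (horizontal axis) for each measured member of the gene lists with 6 or more of them (rows, number measured in brackets), ordered by the median, which is the black bar. Red and blue points are 2-fold or more higher or lower, and dotted lines mark 2-fold. The ribosome biogenesis list has the highest median, 0.63, and the IER and early gene list the lowest, -0.57.

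Cell cycle genes were lower by less. Of 38 measured genes of the G1/S and DNA replication list 3 (7.89%) were 2-fold or more lower, against 1.65% of all measured genes, and 0 were higher. Their median was -0.50 and 33 were below 0, against 4314 of all 8234. Cdc6, which loads the replicative helicase onto origins, had 429 without IL-3, 445.5 after 30 min and 132 after 2 h. Cdt1, its partner in that step, had 782, 654.5 and 303. Rrm2, a ribonucleotide reductase subunit, had 518, 682.5 and 292. The first of these was at its unstimulated level at 30 min and 3.38-fold lower at 2 h. The other members stayed within 2-fold, for example Mcm3 of the helicase at -0.66 and Pold1, a DNA polymerase subunit, at -0.80.

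The G2/M and mitosis list had 40 measured members, of which 2 (5%) were lower, against 1.65% of all measured genes, and 0 were higher. With 2 genes this share rests on few members. Its median was -0.35, and 36 were below 0. Nusap1, a spindle protein, had 199 after 2 h and 592 after 30 min. Ttk, a kinase of the spindle checkpoint, had 174 after 2 h and 369.7 after 30 min. Fbxo5, an inhibitor of the anaphase-promoting complex that stands outside the list, was 2.86-fold lower, with 512 after 2 h and 1467 after 30 min. In both cell cycle lists most members were below 0 and few reached 2-fold.

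The promoter of Cdc6 (chr11:98907901-98908200, plus strand, RefSeq on GRCm38.p6) is shown because it holds TTTNNCGC, a form of the E2F motif, marked in capitals.
Cdc6: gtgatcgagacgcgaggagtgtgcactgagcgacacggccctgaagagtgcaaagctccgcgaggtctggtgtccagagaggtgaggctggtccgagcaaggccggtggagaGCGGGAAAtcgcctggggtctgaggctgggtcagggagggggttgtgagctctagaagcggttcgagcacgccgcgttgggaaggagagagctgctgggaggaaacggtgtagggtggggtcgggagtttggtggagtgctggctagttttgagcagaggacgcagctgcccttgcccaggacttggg

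Among the promoters of the lower genes outside those 14, 9.77% held TTTNNCGC, close to the 8.95% of all measured genes, and 5.17% of all promoters did. TGTTTAC, the core of the FOXO motif, was not in the window of Ccng2.

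Many genes of ribosome assembly were higher. Of 63 measured genes of the ribosome biogenesis and nucleolar list 22 (34.9%) were 2-fold or more higher, against 1.89% of all measured genes, 0 were lower and 60 were above 0. The median log2 ratio of the ribosome biogenesis list was 0.63, against -0.02 for all genes. In the much shorter list of KLF and ID factors 3 of 8 (37.5%) were higher. In that list 2 (25%) were lower, against 1.65% of all measured genes, and its median was 0.11. Nop2, a methyltransferase of the large subunit rRNA, had 130.5 without IL-3, 122.5 after 30 min and 586.5 after 2 h, a 4.79-fold difference between the IL-3 times and the largest upward ratio in the table, bounds included. Rrs1, a factor of large subunit assembly, had 112, 119 and 524 and was at least 4.37-fold higher. Gnl3, the nucleolar GTPase nucleostemin, had 129.8, 169 and 687 and was 4.07-fold higher.

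Tsr1, a factor of small subunit assembly, had 175, 247 and 965 at the 3 times. Ccdc86, a nucleolar protein outside the list, had 133, 136 and 525. Neither they nor the 3 genes before them had reached 2-fold above the unstimulated signal at 30 min in control cells. Other members spanned the steps of ribosome production. Heatr1 and Utp4, of the early small subunit complex, had 558 and 908 after 2 h, against 211 and 347 after 30 min. Gtpbp4, a GTPase of the large subunit, had 1582 after 2 h and 617 after 30 min. Nip7, another assembly factor, had 523 after 2 h and 190.0 after 30 min.

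Some abundant nucleolar proteins stayed within 2-fold. The examples given next were picked after their values were seen, and 60 of the 63 list members were above 0. Npm1, or nucleophosmin, had 4707 after 2 h and 4678 after 30 min. Ncl, or nucleolin, had 2372 and 399 on its 2 probe sets after 2 h, against 2351 and 293 after 30 min. Fbl, the rRNA methyltransferase fibrillarin, had 1080 after 2 h and 999.7 after 30 min. The 27 measured cytosolic ribosomal protein genes gave 0 higher and 0 lower, with log2 ratios between -0.57 and 0.52 and a median of 0.13. So 22 of 63 ribosome biogenesis and nucleolar genes and 0 of 27 structural protein genes of the ribosome passed 2-fold upward. Of all measured genes 1.89% did, and 0 of 27 is near that share.

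**Figure D4:**
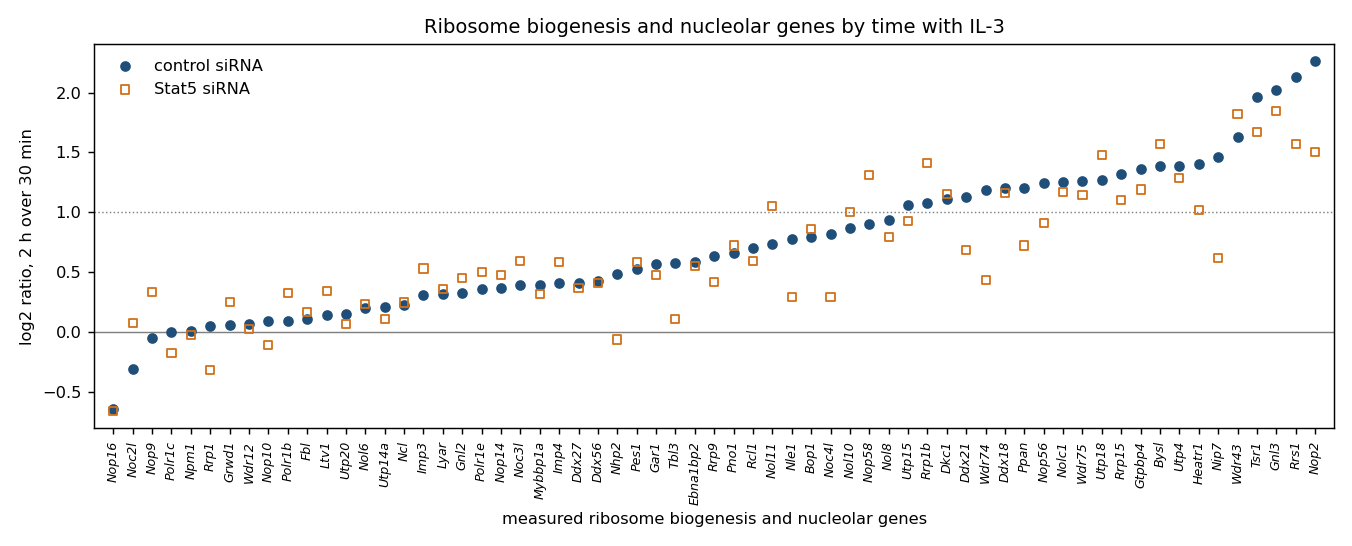
Log2 ratio of 2 h over 30 min (vertical axis) of the 63 measured ribosome biogenesis and nucleolar genes (horizontal axis, ordered by the control ratio) in control siRNA cells (filled circles) and Stat5 siRNA cells (open squares). The dotted line marks 2-fold; 22 control values lie above it, from 1.06 for Utp15 to 2.26 for Nop2.

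Promoters of 3 of these genes are shown because they hold CACGTG, the E-box that MYC and related factors bind, marked in capitals. Nop2 lies at chr6:125131633-125131932 on the plus strand, Tsr1 at chr11:74897830-74898129 on the plus strand and Ccdc86 at chr19:10949217-10949516 on the minus strand, all from RefSeq on GRCm38.p6.
Nop2: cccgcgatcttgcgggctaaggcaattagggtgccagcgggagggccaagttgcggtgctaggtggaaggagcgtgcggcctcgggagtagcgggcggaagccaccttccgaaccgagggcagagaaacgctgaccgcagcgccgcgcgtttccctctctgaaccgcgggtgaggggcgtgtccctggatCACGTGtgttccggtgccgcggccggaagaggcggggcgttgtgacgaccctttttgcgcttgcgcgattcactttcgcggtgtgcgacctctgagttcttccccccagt
Tsr1: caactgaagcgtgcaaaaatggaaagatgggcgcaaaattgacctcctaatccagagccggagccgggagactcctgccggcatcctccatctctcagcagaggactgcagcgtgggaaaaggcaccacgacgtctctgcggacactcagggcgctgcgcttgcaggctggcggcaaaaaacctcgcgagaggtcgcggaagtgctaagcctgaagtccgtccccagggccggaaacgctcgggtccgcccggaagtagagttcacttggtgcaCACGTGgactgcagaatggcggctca
Ccdc86: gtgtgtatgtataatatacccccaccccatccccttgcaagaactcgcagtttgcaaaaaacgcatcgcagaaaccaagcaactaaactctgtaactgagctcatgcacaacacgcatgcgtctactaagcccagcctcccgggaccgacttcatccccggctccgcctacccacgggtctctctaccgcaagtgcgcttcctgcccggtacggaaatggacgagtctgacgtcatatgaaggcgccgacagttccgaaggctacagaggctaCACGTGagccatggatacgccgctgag

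CACGTG stood in 14 of 60 promoters of the measured ribosome biogenesis genes, 23.3%, and in 26 of 158 promoters of the higher genes, 16.5%. It stood in 9.91% of the promoters of all measured genes, in 7.15% of all promoters and in 18.0% of those of the lower genes outside the 14. The share was thus above the measured genes in higher and in lower genes alike. Of the 156 higher genes 128 had promoters in the table.

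Translation factors and metabolic enzymes were higher in single members. Eef1e1, a component of the multi-tRNA synthetase complex, had 2369 after 2 h and 832 after 30 min. Eif1a, which helps the ribosome scan for a start codon, had 559.7 and 829.6 on its 2 probe sets after 2 h, against 194 and 298 after 30 min. Eif2b3, a subunit of the exchange factor of eIF2, had 688 after 2 h and 275 after 30 min. These were the 3 of 26 measured translation factor genes (11.5%) that passed 2-fold upward, against 1.89% of all measured genes. None passed it downward, and the list median was 0.20. Mtap, which salvages methionine from polyamine synthesis, had 825 without IL-3, 909.6 after 30 min and 3503 after 2 h. Slc25a33, a mitochondrial carrier of pyrimidine nucleotides, had 541 after 2 h and 149.9 after 30 min. Chchd4, which imports proteins into the mitochondrial intermembrane space, had 1709 after 2 h and 587.5 after 30 min. All 3 were within 2-fold of their unstimulated signal at 30 min. Polr3e, a subunit of RNA polymerase III, passed 2-fold on its 3 probe sets, with log2 ratios of 1.13, 1.21 and 1.44.

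Survival and signalling genes were also among the higher ones. Bcl2l1, which encodes the survival protein BCL-XL, had 98.0 without IL-3, 130.4 after 30 min and 512 after 2 h, and was 3.93-fold higher at the later IL-3 time. It was the 1 of 9 measured BCL2 family genes (11.1%) past 2-fold, against 1.89% of all measured genes higher. The FOXO target Bcl2l11, which encodes the death protein BIM, had 82.7 after 2 h and 217 after 30 min, with its bound at -0.86. Pim2, a survival kinase, had 81.6, 115 and 411 at the 3 times and was at least 3.43-fold higher. Pim1, its relative, was within 2-fold on both probe sets, with 1047 and 333.5 after 2 h, against 907.5 and 307.5 after 30 min. The inhibitors of helix-loop-helix factors Id1 and Id2 had 911 and 825 after 2 h, against 368 and 347 after 30 min. Id1 was above its unstimulated signal at both times, whereas Id2 was near it at 30 min.

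Of 16 measured genes of the cytokine feedback and STAT5 target list, Id1, Pim2 and Bcl2l1 (18.75%) were higher and Socs1 (6.25%) was lower. Of all measured genes 1.89% were higher and 1.65% lower. The list median was 0.29. Socs1, an inhibitor of JAK kinases, had 35.1, 277.5 and 128.5 without IL-3, at 30 min and at 2 h. Socs2, another family member, had 229 and 383 after 2 h, against 186 and 265 after 30 min. The family thus split, with Socs1 lower, Socs2 at 0.42 and Cish at 0.51. The promoter of Cish (chr9:107296409-107296708, plus strand, RefSeq on GRCm38.p6) is shown because it holds TTCNNNGAA, the motif of STAT factors, 2 times, in capitals.
Cish: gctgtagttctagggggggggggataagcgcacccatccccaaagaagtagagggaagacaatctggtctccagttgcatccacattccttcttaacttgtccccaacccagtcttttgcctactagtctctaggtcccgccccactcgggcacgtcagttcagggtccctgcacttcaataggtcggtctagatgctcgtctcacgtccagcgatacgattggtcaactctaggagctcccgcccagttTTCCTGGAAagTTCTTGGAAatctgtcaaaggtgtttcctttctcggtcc

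TTCNNNGAA stood in 8.86% of the promoters of higher genes, 6.67% of those of all measured genes and 8.30% of all promoters. None of the windows of Bcl2l1 or Pim2, which were called higher, held it, whereas Cish was within 2-fold.

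The receptor and its kinases were level. Of 17 measured genes of the IL-3 receptor, JAK and STAT list 1 (5.88%) was lower, against 1.65% of all measured genes, and 0 were higher. Il3ra lay at 0.13, Csf2rb at 0.04 and Jak2 at 0.40. The exception was Stat5b itself, with 536 without IL-3, 499.5 after 30 min and 177 after 2 h in control siRNA cells, a 2.82-fold fall. In Stat5 siRNA cells it had 126 after 2 h and 166 after 30 min. A second probe set of Stat5b, under the floor, had 47.7 after 2 h and 73.2 after 30 min with the control siRNA. Stat5a, on 2 probe sets that can cross-hybridise, had 474.8 and 254 after 2 h, against 548 and 316 after 30 min, in control siRNA cells.

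Further genes that were past 2-fold upward in both siRNA conditions included Podxl, a sialomucin of blood progenitors, with 1174 after 2 h and 339 after 30 min. Lrp12, a receptor of the LDL receptor family, had 887 after 2 h and 281 after 30 min. Kcnk5, a potassium channel, had 1191 after 2 h and 368 after 30 min. Il4ra, the interleukin-4 receptor chain, had 649 after 2 h and 289 after 30 min. These 4 genes encode proteins of the cell surface. Nfatc2, a transcription factor of lymphocytes, had 854 after 2 h and 311.5 after 30 min. Tnfrsf12a, the TWEAK receptor, had 467 after 2 h and 214 after 30 min. Trgv4, a segment of the T cell receptor gamma locus, which is known to respond to STAT5, had 2604 after 2 h and 774 after 30 min.

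Of all measured genes 3.55% passed 2-fold in either direction, so none in a list of 6 to 32 genes is near that share. Many other pathways had no or single members past 2-fold. None of 22 purine and pyrimidine synthesis genes, 23 amino acid and tRNA charging genes, 17 glycolysis genes, 27 respiratory chain genes, 32 splicing genes, 22 unfolded protein response genes, 6 NF-kB genes, 6 circadian genes, 9 MYC network genes or 8 housekeeping genes passed it, with list medians between -0.25 and 0.28. Xbp1, the unfolded protein response factor, fell just short of it, with 1539 after 2 h and 774 after 30 min. Of 22 chaperone genes Hsph1 (4.55%) was higher, with 561 after 2 h and 279 after 30 min. Dnajb1 (4.55%), a heat shock cochaperone, was lower, with 194 after 2 h and 507 after 30 min. Of 21 cholesterol and fatty acid genes the fatty acid synthase Fasn (4.76%) was higher and the desaturase Scd2 (4.76%) lower, at 1.01 and -1.10. Of all measured genes 1.89% were higher and 1.65% lower, and the shares in these lists rest on single genes. Of 15 interferon response genes 2 (13.3%) were lower, against 1.65% of all measured genes, and 0 were higher.

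The line of 2-fold was crossed without a gap. Just inside it lay Tasp1, at a log2 ratio of 1.00038, and Tbc1d13, at -1.00406. Just outside lay Plpp4, at 0.99879, and Primpol, at -0.999188.

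The same times were set side by side in Stat5 siRNA cells, whose arrays are not those of the control ratio. There 135 of 8247 genes were higher (1.64%) and 98 were lower (1.19%), together 2.83%. Of the 156 genes higher in control siRNA cells 155 were measured with Stat5 siRNA, 145 had the same sign and 76 were 2-fold or more higher there too, which is 49.0% of the 155. Of the 136 lower genes 134 were measured, 124 had the same sign and 49 were 2-fold or more lower there too, 36.6% of the 134. Over 7924 genes measured in both, the ratios had a Pearson correlation of 0.614 and a Spearman correlation of 0.529 across genes, which are not independent replicates and share the probe sets. These values describe the 2 sets of arrays, and the siRNA effect on a time ratio was not tested.

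The leading members given next kept their direction with Stat5 siRNA. Fbxo44 and Psmc3, also among the largest falls, did not, at 1.08 (a bound) and 1.32 with Stat5 siRNA. Fos had 77.6 after 2 h and 1542 after 30 min there, Ccng2 90.6 and 924, and Nop2 557 and 196, at the same 2 times. Of the early genes, Egr2 had 218 after 2 h and 1939 after 30 min with Stat5 siRNA, Cd69 219 and 1166, and Dusp1 354 and 1100. Among those low only at 2 h, Trp53inp1 had 176 after 2 h and 530.1 after 30 min with Stat5 siRNA, Tob1 198 and 445, and Cdc6 160.1 and 472. All 6 were thus lower at 2 h than at 30 min with either siRNA. Among the later genes, Rrs1 had 458 after 2 h and 154 after 30 min with Stat5 siRNA, Gnl3 795 and 221, Bcl2l1 372 and 108, and Mtap 2584 and 902. Of the lists described above, the medians were 0.63 with control siRNA and 0.54 with Stat5 siRNA for ribosome biogenesis. In the same order they were -0.57 and -0.40 for the IER and early genes, -0.53 and -0.49 for the FOXO-linked genes, and -0.50 and -0.40 for G1/S genes. Of the 31 lists with 6 or more measured members 8 had medians of opposite sign with the 2 siRNAs, all within 0.27 of 0, among them D cyclin genes at -0.27 and 0.06, MYC network genes at -0.25 and 0.03, and cytosolic ribosomal proteins at 0.13 and -0.11. The ratio of Pim2 was bounded at 1.78 with control siRNA and at 0.73 with Stat5 siRNA, where its signals were 198 after 2 h and 88.0 after 30 min. Kazn, a junction protein, had 441 after 2 h and 87.9 after 30 min with control siRNA, and 206 after 2 h and 108 after 30 min with Stat5 siRNA. The ratio of Cish was 0.51 with control siRNA and 0.73 with Stat5 siRNA, where its signals were 645.5 after 2 h and 389 after 30 min, both below those of control siRNA cells.

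**Figure D5:**
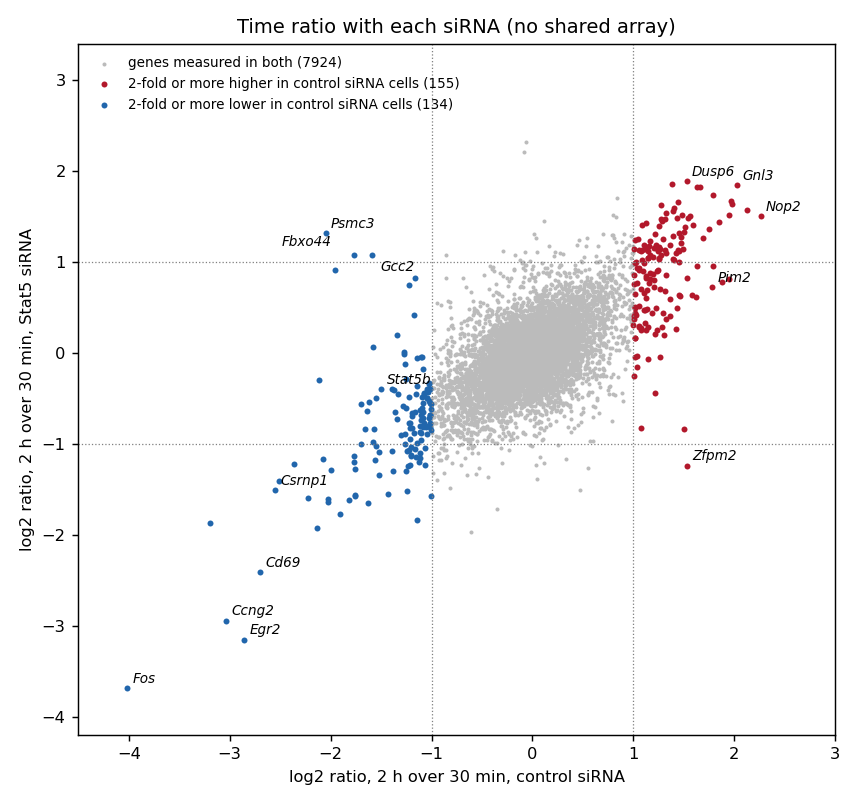
Log2 ratio of 2 h over 30 min in control siRNA cells (horizontal axis) and Stat5 siRNA cells (vertical axis) for the 7924 genes measured in both. Red and blue points are the 155 higher and 134 lower genes of the control ratio; most lie on the same side of 0 in both, and the 4 genes past 2-fold in opposite directions (Psmc3, Fbxo44, Gcc2 and Zfpm2) are labelled.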

How the data were processed

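RNA of each of 5 conditions had been hybridised to Affymetrix U74A, U74B and U74C arrays, 1 array per condition and design, 15 in all. The authors deposited linear probe set intensity values, which they normalized with MAS5 per the design text and the submitters' processing notes. On the deposited arrays the mean signal, after trimming 2% of values from either tail, was between 150.04 and 150.10. Batches, scan dates and MAS5 settings are not given in the sources used here, and detection calls were not used here. The number of arrays limits the precision.

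Arrays were brought to a common trimmed mean. The floor of 119.866 is the signal that 14553 of 36701 non-control probe sets reached on at least 1 array of their design, the number that passed the filters in the design text. Dimmer signals were raised to it before log2 was taken, and a probe set entered a ratio if at least 1 of its 2 signals reached it. Gene names came from the platform annotation, in which 29131 probe sets had 1 symbol and were used, 724 had several and 6846 had none. A gene's log2 ratio is the median over its measured probe sets. Those ending in _f_at, _r_at, _i_at or _x_at can cross-hybridise and entered only where a gene had no other. A call means 2-fold or more and is no test. A gene's ratio with each siRNA uses the probe sets measured in that ratio, which can differ between the siRNAs.

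Named are the 15 largest rises and falls, the 5 largest each way on probe sets that can cross-hybridise, up to 8 members of each of 30 gene lists and 5 marker lists (the AP-1, EGR, IER, DUSP, cytokine feedback and MYC lists in full), genes past 2-fold the same way or opposite ways with both siRNAs, and genes nearest the line. Outside this rule Npm1, Ncl, Fbl, Utp15, Il3ra, Csf2rb and Txnip were named after their values were seen. The genes, lists and comparisons were chosen with earlier results of these data known, so no list is independent support. Promoter windows came from RefSeq on GRCm38.p6 and were matched by symbol. Alternatives changed the floor, the scaling, the value per gene, the probe sets that can cross-hybridise, the array designs and the threshold. The steps were tested on simulated data. Python 3.11.15, numpy 2.4.6, pandas 2.3.3 and matplotlib 3.10.9 were used.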

Additional observations from a re-analysis of the deposited data

Results flagged for a closer look

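In 4 genes the log2 ratio of 2 h over 30 min passed 2-fold in opposite directions with the 2 siRNAs. The difference between the siRNAs was not tested, since each ratio rests on 1 array per time. Psmc3, a proteasome ATPase, lay at -2.05 in control siRNA cells and at 1.32 in Stat5 siRNA cells, a difference of -3.37. That value comes from a U74C probe set with 228 after 2 h and 943 after 30 min in control siRNA cells. Psmc3 also has 3 probe sets on U74A that can cross-hybridise, and these gave -0.17, -0.05 and 0.26 with control siRNA. Fbxo44, a ubiquitin ligase subunit, had -1.77 with control siRNA and 1.08 with Stat5 siRNA, both bounds, a difference of -2.85. Gcc2, a Golgi protein read by a probe set that can cross-hybridise, had -1.59 and 1.08 in the same order, a difference of -2.67. Zfpm2, a cofactor of GATA factors, had 1.53 with control siRNA and -1.24 with Stat5 siRNA, both bounds, a difference of 2.77. Of the 4, Psmc3, Fbxo44 and Zfpm2 were read on U74C, the design with the widest probe spread (SD 0.37), and each of the 4 ratios rests on 1 probe set.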

How the results depend on the processing

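No paired analysis was possible because each condition had 1 array per design. The counts of genes depended on the floor and the threshold. In control siRNA cells 245 genes were higher and 247 lower with the floor halved, 91 and 70 with it doubled, and 284 and 289 with signals not raised to it, beside 156 and 136. At 1.5-fold 555 were higher and 654 lower, and at 3-fold 20 and 32. In Stat5 siRNA cells the counts were 206 and 187 with the floor halved, 84 and 46 with it doubled, and 253 and 228 with signals not raised, beside 135 and 98. With the floor doubled 83 of the 156 and 62 of the 136 genes were still called. The median of the early genes chosen on other arrays was -0.58 on U74A and U74B alone and 0.025 with dim signals left as they were, beside -0.16, and lay between -0.19 and -0.018 under the others, so its direction is not settled. Under the other scalings and the other probe set rules the counts stayed within 1.5 times. Of 3608 alternative values for 374 named genes 3364 lay within the probe spread of the reported value. Of the genes past 2-fold 1 changed sign, in 3 of these values. This was Tcf3, a B lineage factor on a probe set that can cross-hybridise, at 0.00931 with the floor halved or set per design and 0.00493 with median scaling, beside -1.17. Another 12 named genes, all within 2-fold, changed sign in some alternative. Of 339 alternative medians for 34 lists 331 lay within the spread, and 9 lists, whose reported medians were at most 0.11 from 0, changed sign. Signals near the floor limit what can be read.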

Other observations

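Genes of the glycosylation of the cell surface, grouped after their values were seen, lay on both sides of 2-fold. Fut7, a fucosyltransferase of selectin ligands, had 76.1 after 2 h and 323 after 30 min in control siRNA cells, and St3gal1, a sialyltransferase, had 80.2 after 2 h and 283 after 30 min. Both 2 h signals lay under the floor. B4galt5, a galactosyltransferase of glycolipid synthesis, was higher instead, with 462 after 2 h and 175 after 30 min. The same 3 directions stood in Stat5 siRNA cells, at -1.55 for Fut7, -1.51 for St3gal1 and 1.59 for B4galt5 on the log2 scale.

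Of 6 measured polyamine synthesis genes 1 (16.7%) passed 2-fold, upward, against 1.89% of all measured genes. Srm, the spermidine synthase, was 2-fold or more higher at a median of 1.23, but its 2 probe sets, which can cross-hybridise, gave 0.23 and 2.23, so the gene's call rests on one of them. Odc1, the first enzyme of that pathway, lay at -0.12. Gchfr, a regulator of GTP cyclohydrolase read by a probe set that can cross-hybridise, was lower by a log2 ratio of -3.20, with 1 probe set.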
